A study of Mus musculus with 8 samples.

Results

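The immunity-related p47 GTPases (IRG proteins) were followed in bone marrow-derived macrophages (BMDMs) through 7 genes, *Irgm1*, *Irgm2*, *Igtp*, *Iigp1*, *Ifi47*, *Tgtp1* and *Tgtp2*. They were taken by symbol from a table of 50615 genes, and all 7 were among the 17625 genes that passed the filter on low counts. LPS + MSU raised all 7 in both genotypes, from 10.8-fold for *Irgm2* and 11.2-fold for *Irgm1* to 228-fold for *Tgtp1* and 256-fold for *Iigp1* in *Ncoa6*-sufficient cells. The fold of *Tgtp1* rests on 22.2 and 14.5 expected counts in medium, and reads that it shares with *Tgtp2* were split by estimate. In medium alone, *Igtp*, *Ifi47* and *Tgtp2* fell in *Ncoa6*-KO BMDMs, and *Tgtp2* kept 31.9% of its level. With LPS + MSU none of the 7 passed the test between genotypes.

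IRG proteins are GTPases that interferons induce in mouse cells, where they defend against pathogens that live inside membrane-bound vacuoles, such as *Toxoplasma*. Effector members with a lysine in the first nucleotide-binding motif load onto the vacuole and help to break its membrane. Regulator members, in which a methionine takes the place of that lysine, sit on the cell's own membranes and keep the effectors in their inactive, GDP-bound state. *Irgm1*, *Irgm2* and *Igtp* (also called Irgm3) are the regulators here, and *Iigp1* (Irga6), *Ifi47* (Irgd), *Tgtp1* and *Tgtp2* (Irgb6) are effectors.

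The libraries came from C57BL/6 mice of 2 genotypes. *Ncoa6*-KO cells were *Ncoa6 fl/fl LysM CRE*, in which Cre recombinase expressed from the *Lyz2* locus removes floxed *Ncoa6* sequence in myeloid cells. *Ncoa6*-sufficient cells (labelled WT) were *Ncoa6 fl/fl* without Cre, so that the floxed alleles were shared by all groups and Cre was present in the KO groups alone. Bone marrow cells were cultured with M-CSF (20 ng/ml, 6 days), and BMDMs of each genotype either stayed in medium or received lipopolysaccharide (LPS, 100 ng/ml, 4 h) and then monosodium urate crystals (MSU, 200 µg/ml, 2 h). Each of the 4 groups had 2 libraries, which the study's methods describe as from different mice. The numbers 1 and 2 are names, since the labels do not say that libraries with the same number share a mouse. NCOA6 is a coactivator of nuclear receptors and other transcription factors.

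Values are normalized counts, that is, expected counts put on a common library size of 29332189, the mean over libraries after edgeR's TMM scaling. Totals ran from 25281955 to 33673552 counts per library, and TMM factors from 0.766 to 1.29. *Ncoa6* had 1515 and 1405 normalized counts in the *Ncoa6*-sufficient libraries 1 and 2 in medium, and 784 and 622 in the *Ncoa6*-KO libraries. With LPS + MSU it had 1297 and 1173 against 563 and 526. The genotypes did not overlap, and counts over the whole gene do not resolve the floxed part. *Ncoa6* fell by 1.05 on the log2 scale in medium (SE 0.117, edgeR adjusted p = 0.00236) and by 1.18 with LPS + MSU (SE 0.124, edgeR adjusted p = 0.00189).

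The macrophage markers summed to 398542 to 461972 normalized counts in *Ncoa6*-sufficient and 261962 to 301263 in *Ncoa6*-KO libraries in medium. With LPS + MSU the sums were 453718 to 510234 against 328161 to 346995, so that the genotypes did not overlap under either condition. The largest part of each sum was *Lyz2*, at 272098 and 209893 against 127555 and 111993 in medium. Of 7 such markers, 1 was called lower in *Ncoa6*-KO cells in medium, against 1.3% of all genes called lower. With LPS + MSU, 2 were called lower, against 3.59% of all genes called in either direction. *Lyz2*, which holds the Cre, fell by 1.01 and 0.95 on the log2 scale (edgeR adjusted p = 0.0172 and 0.0142). Of 7 markers of T and NK cells, the cells that make most interferon-γ, *Cd3g*, *Trac* and *Ncr1* had no counts in any library, and the list summed to at most 5.54 normalized counts. The 3 endothelial markers summed to 525 to 700 in *Ncoa6*-sufficient and 362 to 372 in *Ncoa6*-KO libraries in medium, and to 6362 to 6794 against 3016 to 5361 with LPS + MSU. Most of these sums came from *Kdr* alone. It had 499 and 674 against 364 and 346 in medium, and 6214 and 6679 against 5281 and 2965 with LPS + MSU. The sums thus do not measure a share of endothelial cells. The 4 stromal markers summed to 365 to 408 against 129 to 432 in medium, and to 762 to 820 against 196 to 691 with LPS + MSU. edgeR called 0 of these 7 endothelial and stromal markers between genotypes under either condition, against 1.88% of all genes in medium and 3.59% with LPS + MSU. An unadjusted p under 0.05 was seen for 2 in medium and 3 with LPS + MSU, against 12.8% and 17.4% of all genes. The part of these markers in the values of the IRG genes was not tested. In bulk RNA, fewer cells that express a gene and less RNA per cell cannot be told apart.

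In GRCm38, 6 of the 7 genes lie on chromosome 11 in 2 groups. *Irgm1* (ENSMUSG00000046879, 48861968 to 48871683, reverse strand), *Tgtp1* (ENSMUSG00000078922, 48985327 to 48994172, reverse strand), *Tgtp2* (ENSMUSG00000078921, 49057194 to 49064206, reverse strand) and *Ifi47* (ENSMUSG00000078920, 49076587 to 49096974, forward strand) span 235 kb. *Igtp* (ENSMUSG00000078853, 58199556 to 58207591, forward strand) and *Irgm2* (ENSMUSG00000069874, 58199618 to 58222782, forward strand) span 23.2 kb. *Iigp1* lies on another chromosome. Some of these genes cannot be told apart fully by short reads. Of all 100-base windows in *Tgtp2* transcripts, 76.8% also occur in *Tgtp1*, and 70.3% of those of *Tgtp1* occur in *Tgtp2*, so that the split of reads between them is an estimate of the counting program. *Igtp* and *Irgm2* overlap on the same strand in the annotation and share 5.16% of the windows of *Igtp*, while *Irgm1* and *Iigp1* share none with another gene.

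Promoter sequences were examined because these genes moved together, and because interferons act on them through known DNA elements. These are the gamma-activated site (GAS), searched as TTCNNNGAA, and the interferon-stimulated response element (ISRE), searched by its core of GAAA, any 2 bases and GAAA. Both strands were searched, and the motifs may overlap each other. RefSeq windows of 250 bases before to 50 after the start on GRCm38.p6 were at hand for 6 of the 7 genes, all but *Iigp1*. Each of these genes had a single window, and other starts were not searched. The windows of *Irgm1*, *Irgm2* and *Tgtp1* lie inside the genes as annotated. The ISRE letters were in 5 of the 6 windows, all but *Ifi47*. They were also in 3 of 6 windows of other IRG loci and in 3.44% of the 32851 promoters of the table. The GAS letters were in 4 of the 6 windows from the 7 genes, those of *Igtp*, *Irgm2*, *Tgtp1* and *Tgtp2*. They were also in 2 of 6 windows of other IRG loci and in 8.30% of all promoters. The 120 bases before the start of the 6 genes are shown to compare these blocks, 5′ to 3′ on the strand of the gene, with the letters of a motif in capitals.
Irgm1 (chr11:48871421-48871540, reverse strand): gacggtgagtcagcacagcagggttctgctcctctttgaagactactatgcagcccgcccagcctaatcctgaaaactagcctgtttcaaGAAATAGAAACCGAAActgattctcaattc
Igtp (chr11:58199436-58199555, forward strand): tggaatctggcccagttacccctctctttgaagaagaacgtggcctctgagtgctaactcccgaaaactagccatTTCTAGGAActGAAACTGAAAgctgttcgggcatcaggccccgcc
Irgm2 (chr11:58214857-58214976, forward strand): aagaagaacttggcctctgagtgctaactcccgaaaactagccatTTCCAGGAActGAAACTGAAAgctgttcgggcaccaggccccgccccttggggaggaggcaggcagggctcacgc
Tgtp1 (chr11:48992247-48992366, reverse strand): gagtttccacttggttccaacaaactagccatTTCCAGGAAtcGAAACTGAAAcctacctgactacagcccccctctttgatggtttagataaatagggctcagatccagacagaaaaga
Tgtp2 (chr11:49064213-49064332, reverse strand): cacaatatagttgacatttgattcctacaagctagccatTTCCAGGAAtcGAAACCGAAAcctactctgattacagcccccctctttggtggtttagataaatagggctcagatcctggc
Ifi47 (chr11:49076467-49076586, forward strand): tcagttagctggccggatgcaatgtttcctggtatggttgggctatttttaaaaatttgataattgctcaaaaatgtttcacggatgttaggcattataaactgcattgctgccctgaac

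In *Igtp*, *Irgm2*, *Tgtp1* and *Tgtp2* the GAS letters stood just upstream of the ISRE letters with 2 bases between them. This joined block, a GAS, any 2 bases and an ISRE core, was noticed in the sequences and then searched, and it occurred in 5 of the 32851 promoters (0.0152%), those of the 4 genes and of the IRG locus *Gm12185*. The block was TTCCAGGAActGAAACTGAAA in *Irgm2* at -75 to -55 from the start and TTCTAGGAActGAAACTGAAA in *Igtp* at -45 to -25. It was TTCCAGGAAtcGAAACTGAAA in *Tgtp1* at -88 to -68 and TTCCAGGAAtcGAAACCGAAA in *Tgtp2* at -81 to -61. The gap letters were therefore shared within the regulator pair and within the effector pair. *Irgm1* carried 2 overlapping ISRE cores at -30 to -21 and -24 to -15, and no GAS letters. These related promoters are not independent of each other. The windows were compared without gaps, at their best single offset. Those of *Igtp* and *Irgm2* were identical at 68.1% of 270 bases and those of *Tgtp1* and *Tgtp2* at 51.7% of 292. Without gaps, an inserted or missing base puts the letters beyond it out of step. The printed *Tgtp1* and *Tgtp2* sequences differ by such a base just after the block, so their value is too low and does not rank the pairs. No match in *Ifi47* says only that these letters were not in its window, and a match is not a measured binding site.

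**Figure D1:**
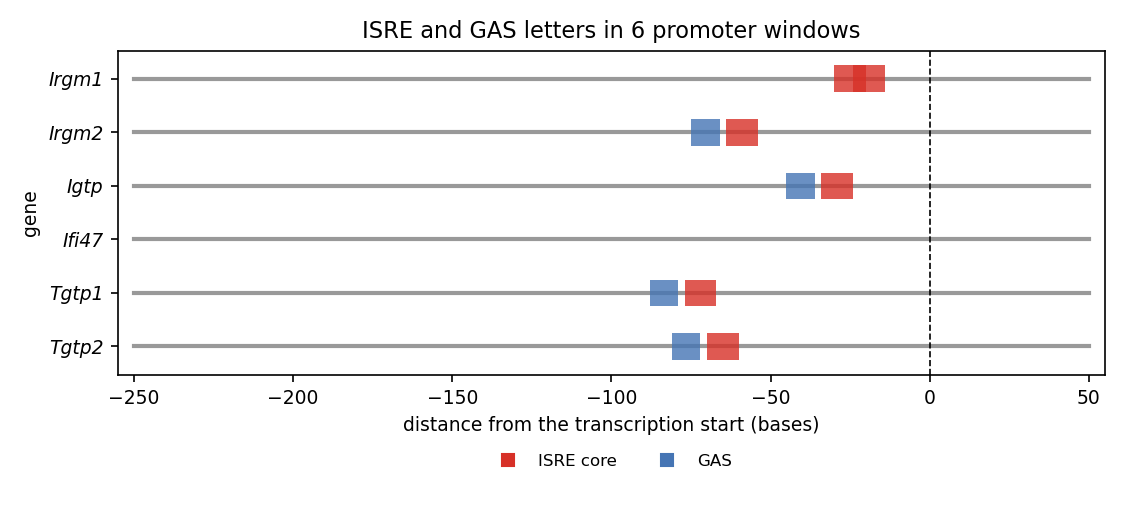
Positions of the ISRE core (red) and GAS (blue) letters in the RefSeq promoter windows of 6 IRG genes, with the distance from the transcription start in bases on the x axis and 1 gene per line. In *Irgm2*, *Igtp*, *Tgtp1* and *Tgtp2* a GAS lies 2 bases upstream of an ISRE core, *Irgm1* has 2 overlapping ISRE cores, and the window of *Ifi47* has neither motif.

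The genotypes were first compared in medium, to see the effect of the knockout before stimulation. *Igtp*, *Ifi47* and *Tgtp2* fell in *Ncoa6*-KO BMDMs, and all 7 genes had lower counts in both *Ncoa6*-KO libraries than in either *Ncoa6*-sufficient library. The edgeR quasi-likelihood test, adjusted by the Benjamini-Hochberg method over all genes tested, called 3 of 7 lower, where it called 1.3% of all genes lower, and 6 of 7 had an unadjusted p under 0.05, against 12.8% of all genes. The genotypes did not overlap, with the *Ncoa6*-KO libraries lower, for 7 of 7 genes and for 24.5% of all genes. The median log2 fold change of the 7 genes was -1.05, and that of all genes was -0.03.

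Among the regulators, *Irgm1*, which localizes to the Golgi apparatus, mitochondria and lysosomes, had 2932 and 2669 normalized counts in the *Ncoa6*-sufficient libraries and 2042 and 1285 in the *Ncoa6*-KO libraries. Its log2 fold change was -0.75 (SE 0.193, edgeR adjusted p = 0.0876). The library 2 of *Ncoa6*-KO cells was the lowest of the 4 and stood further from its replicate than the genotypes' nearest libraries stood from each other. *Irgm2*, a Golgi-associated regulator, had 1171 and 945 against 852 and 502, with a log2 fold change of -0.64 (SE 0.205, edgeR adjusted p = 0.177). *Igtp*, found at the endoplasmic reticulum and on lipid droplets, had 914 and 852 against 589 and 381. Both *Ncoa6*-KO libraries were clearly below the close *Ncoa6*-sufficient pair, and *Igtp* fell by 0.86 on the log2 scale, to 55.1% (SE 0.172, edgeR adjusted p = 0.0354).

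Among the effectors, *Iigp1* and *Tgtp1* had the lowest counts and the largest standard errors of the 7 in medium. *Tgtp2*, which loads onto *Toxoplasma* vacuoles, had 456 and 367 normalized counts in *Ncoa6*-sufficient and 155 and 104 in *Ncoa6*-KO libraries. Both *Ncoa6*-KO values were under the lowest *Ncoa6*-sufficient value by a wide margin, and *Tgtp2* fell by 1.65 on the log2 scale (SE 0.201, edgeR adjusted p = 0.00365). *Ifi47* had 954 and 688 against 466 and 325, and fell by 1.05 to 48.3% (SE 0.212, edgeR adjusted p = 0.0363). *Iigp1* (ENSMUSG00000054072, on chromosome 18), a well-studied effector of the vacuole membrane, had 134 and 86.9 against 50.7 and 21.1. Its replicates differed widely within each genotype, and the log2 fold change of -1.58 did not pass the test (SE 0.429, edgeR adjusted p = 0.102). *Tgtp1* had 16.7 and 12.5 against 7.51 and 0, where a count of 0 in that library allows up to 2.63 normalized counts (3 counts, counting error only). Its log2 fold change was -1.77 with a 95% interval from -3.69 to 0.15 (edgeR adjusted p = 0.440) and did not pass the test. When *Tgtp1* and *Tgtp2* were summed to avoid the split of shared reads, the sum fell by 1.66 (SE 0.215, edgeR adjusted p = 0.00496).

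The number of calls in medium depended on single libraries. It was 0 without library 1 of *Ncoa6*-sufficient cells in medium, where *Tgtp2* had an adjusted p of 0.0587 from edgeR and 0.125% of all genes were called. It was 1 (*Tgtp2*) without library 2 of that group (0.528% of all genes), library 2 of *Ncoa6*-KO cells in medium (0.658%), or library 1 or 2 of *Ncoa6*-KO cells with LPS + MSU (1.37% and 1.36%). It was 2 without library 2 of *Ncoa6*-sufficient cells with LPS + MSU (1.56% of all genes) and 5 without library 1 of *Ncoa6*-KO cells in medium (2.11%), DESeq2 also called 5 (2.87% of all genes), and edgeR without the filter on low counts called 7 (4.67% of all genes).

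**Figure D2:**
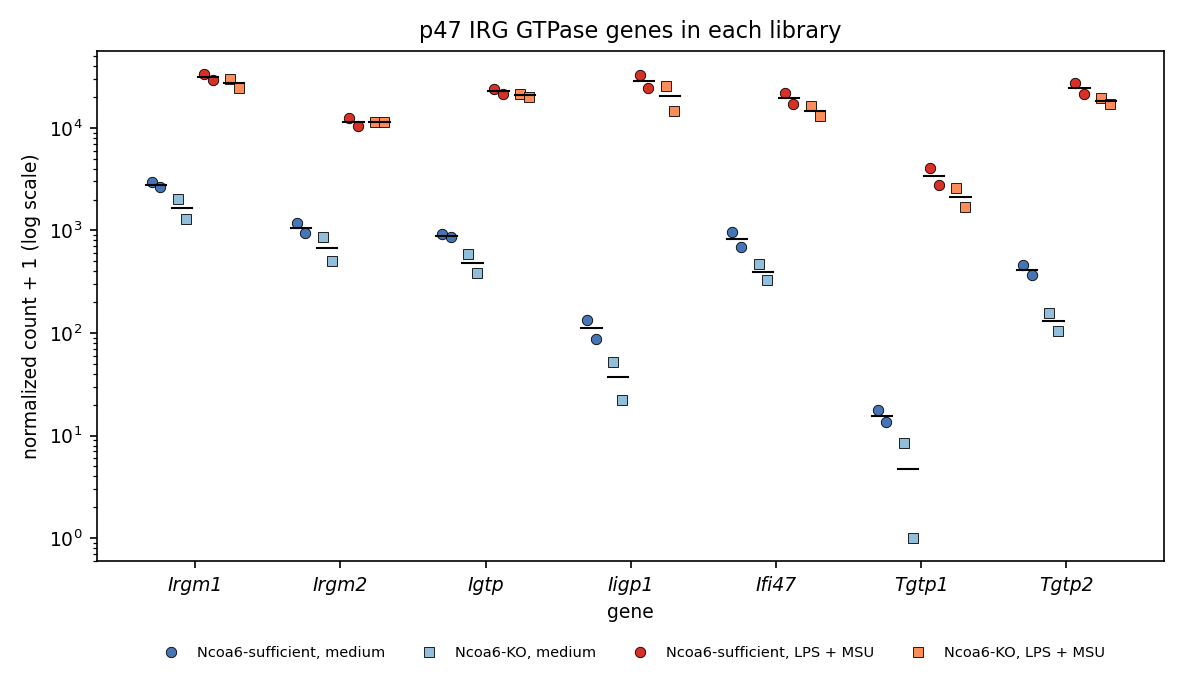
Normalized counts plus 1 (log scale) of the 7 IRG genes in each library, with circles for *Ncoa6*-sufficient and squares for *Ncoa6*-KO BMDMs, blue shades for medium, red shades for LPS + MSU, and short lines for the means of 2 libraries. In medium every *Ncoa6*-KO library lies below both *Ncoa6*-sufficient libraries for all 7 genes, and with LPS + MSU all genes stand far higher, with *Irgm1*, *Irgm2* and *Iigp1* overlapping between genotypes.

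LPS + MSU raised all 7 genes in both genotypes. For each of them, every stimulated library stood above both libraries in medium of the same genotype. Such a rise without overlap held for 35.1% of all genes in *Ncoa6*-sufficient and 35.4% in *Ncoa6*-KO cells. edgeR called 7 of 7 higher in *Ncoa6*-sufficient cells, where it called 24.7% of all genes higher, and 7 of 7 in *Ncoa6*-KO cells, where it called 25.2%. The 7 genes together took 0.0239% and 0.0276% of all counts in *Ncoa6*-sufficient cells in medium and 0.342% and 0.407% with LPS + MSU. In *Ncoa6*-KO cells they took 0.0115% and 0.0178% in medium and 0.288% and 0.350% with LPS + MSU.

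*Irgm1* and *Irgm2* had the smallest rise of the 7. *Irgm1* reached 33484 and 29371 normalized counts in *Ncoa6*-sufficient cells (log2 fold change 3.49, SE 0.209, edgeR adjusted p = 9.27e-08) and 30206 and 24263 in *Ncoa6*-KO cells (4.03, SE 0.215, edgeR adjusted p = 3.86e-08). *Irgm2* reached 12360 and 10434 (3.43, SE 0.216, edgeR adjusted p = 1.38e-07), and 11482 and 11266 in *Ncoa6*-KO cells (4.07, SE 0.223, edgeR adjusted p = 4.92e-08). *Igtp* reached 23984 and 21568 (4.69, SE 0.190, edgeR adjusted p = 4.90e-09), and 21495 and 19846 in *Ncoa6*-KO cells (5.41, SE 0.197, edgeR adjusted p = 2.54e-09). In linear terms the regulators rose 11.2-, 10.8- and 25.8-fold in *Ncoa6*-sufficient cells and 16.3-, 16.7- and 42.5-fold in *Ncoa6*-KO cells.

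Among the effectors, *Ifi47* rose about as much as *Igtp*, and the others rose more. *Iigp1* went from 134 and 86.9 to 32831 and 24166 in *Ncoa6*-sufficient cells (log2 fold change 8.0, SE 0.392, edgeR adjusted p = 2.01e-08) and to 25785 and 14742 in *Ncoa6*-KO cells (9.09, SE 0.426, edgeR adjusted p = 1.51e-08). *Tgtp1* reached 4055 and 2756 (7.83, SE 0.383, edgeR adjusted p = 1.99e-08), and 2582 and 1693 in *Ncoa6*-KO cells (8.93, SE 0.452, edgeR adjusted p = 2.61e-08). The fold in *Ncoa6*-KO cells rests on a group in medium with a library at 0. *Tgtp2* reached 27405 and 21570 (5.89, SE 0.212, edgeR adjusted p = 2.30e-09), and 19391 and 17025 in *Ncoa6*-KO cells (7.11, SE 0.228, edgeR adjusted p = 1.15e-09). Summed, *Tgtp1* and *Tgtp2* rose by 6.03 in *Ncoa6*-sufficient cells (SE 0.228, edgeR adjusted p = 3.07e-09) and by 7.24 in *Ncoa6*-KO cells (SE 0.245, edgeR adjusted p = 1.53e-09). In *Ncoa6*-sufficient libraries 1 and 2, *Tgtp1* made up 3.52% and 3.30% of this sum in medium, and 12.9% and 11.3% with LPS + MSU. *Ifi47* reached 21804 and 17002 (4.56, SE 0.230, edgeR adjusted p = 2.48e-08), and 16422 and 13038 in *Ncoa6*-KO cells (5.21, SE 0.239, edgeR adjusted p = 1.30e-08). The median log2 fold change was 3.49 for the 3 regulators and 6.86 for the 4 effectors in *Ncoa6*-sufficient cells, and 4.07 and 8.02 in *Ncoa6*-KO cells, which describes these genes without a test. The effector medians lie midway between *Tgtp1* and *Tgtp2*, which share most of their sequence windows. *Gm12250* (Irgb10), an effector outside the 7, rose by 4.51 in *Ncoa6*-sufficient cells (SE 0.235, edgeR adjusted p = 3.17e-08), less than the regulator *Igtp*.

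**Figure D3:**
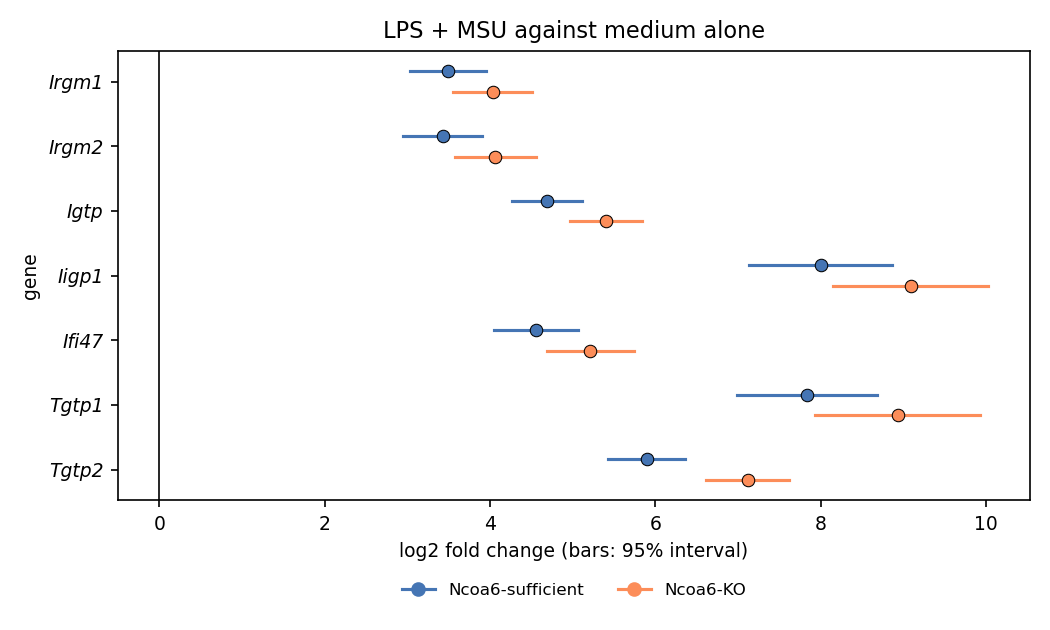
Log2 fold change of LPS + MSU against medium for each IRG gene in *Ncoa6*-sufficient (blue) and *Ncoa6*-KO (orange) BMDMs, with bars for the 95% interval from edgeR. Changes run from 3.43 for *Irgm2* to 8.0 for *Iigp1* in *Ncoa6*-sufficient cells, and the *Ncoa6*-KO value lies to the right of the *Ncoa6*-sufficient one for all 7 genes.

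Levels can be compared between genes only per length, as TMM-scaled CPM per kb of exon. On this scale *Irgm1* was the highest in *Ncoa6*-sufficient cells in medium, at 17.2 and 15.7 in libraries 1 and 2, followed by *Igtp* at 15.4 and 14.4, *Ifi47* at 13.2 and 9.49, and *Irgm2* at 10.8 and 8.73. *Ifi47* and *Irgm2* overlapped. *Tgtp2* at 5.29 and 4.26, *Iigp1* at 0.787 and 0.509, and *Tgtp1* at 0.177 and 0.133 stood apart below them. With LPS + MSU, *Igtp* led at 404 and 364 on this per-length scale, above *Tgtp2* at 318 and 250 and *Ifi47* at 301 and 234, which overlapped. *Irgm1* followed at 196 and 172 and overlapped with *Iigp1* at 192 and 141, and *Irgm2* at 114 and 96.4 and *Tgtp1* at 43.1 and 29.3 came last. The highest mean was 106 times the lowest in medium and 10.6 times the lowest with LPS + MSU.

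*Ncoa6*-KO cells in medium kept *Irgm1* at the top per length, at 12.0 and 7.54, but it overlapped with *Igtp* at 9.92 and 6.43, which overlapped with *Irgm2* at 7.87 and 4.64, and *Irgm2* with *Ifi47* at 6.42 and 4.48. With LPS + MSU, *Igtp* led in *Ncoa6*-KO cells as well, at 362 and 335, and *Tgtp1* was again last, at 27.5 and 18.01. The effectors' share of the summed per-length level of the 7 genes was 30.9% and 27.1% in *Ncoa6*-sufficient and 22.4% and 23.8% in *Ncoa6*-KO libraries in medium. It was 54.4% and 50.9% against 49.4% and 45.3% with LPS + MSU. The stimulated libraries had the larger effector share in both genotypes, and the *Ncoa6*-KO libraries the smaller share under both conditions, as a description of these libraries.

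With LPS + MSU the genotypes were closer than in medium. edgeR called 0 of 7 genes between genotypes, where it called 3.59% of all genes, and 2 of 7 (*Tgtp1* and *Tgtp2*) had an unadjusted p under 0.05, against 17.4% of all genes. DESeq2, limma-voom and limma-trend also called 0 of the 7, where they called 4.82%, 2.5% and 3.49% of all genes. The genotypes did not overlap, with *Ncoa6*-KO lower, for 4 of 7 genes (*Igtp*, *Ifi47*, *Tgtp1* and *Tgtp2*), against 22.9% of all genes. The median log2 fold change of the 7 genes was -0.40, and that of all genes was 0.00.

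For the regulators the log2 fold changes with LPS + MSU were -0.21 for *Irgm1* (95% interval -0.62 to 0.21, edgeR adjusted p = 0.639), -0.00 for *Irgm2* (-0.43 to 0.43, edgeR adjusted p = 1) and -0.14 for *Igtp* (-0.50 to 0.22, edgeR adjusted p = 0.718). The *Ncoa6*-KO libraries of *Irgm2* lay between the *Ncoa6*-sufficient ones. For the effectors the values were -0.49 for *Iigp1* (-1.11 to 0.12, edgeR adjusted p = 0.412), -0.40 for *Ifi47* (-0.83 to 0.04, edgeR adjusted p = 0.336), -0.67 for *Tgtp1* (-1.20 to -0.14, edgeR adjusted p = 0.173) and -0.43 for *Tgtp2* (-0.80 to -0.05, edgeR adjusted p = 0.220). All 4 effectors thus had more negative values than the 3 regulators, and the intervals do not show that either kind was equal between genotypes. Without the filter on low counts edgeR called the 4 effectors (6.54% of all genes).

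**Figure D4:**
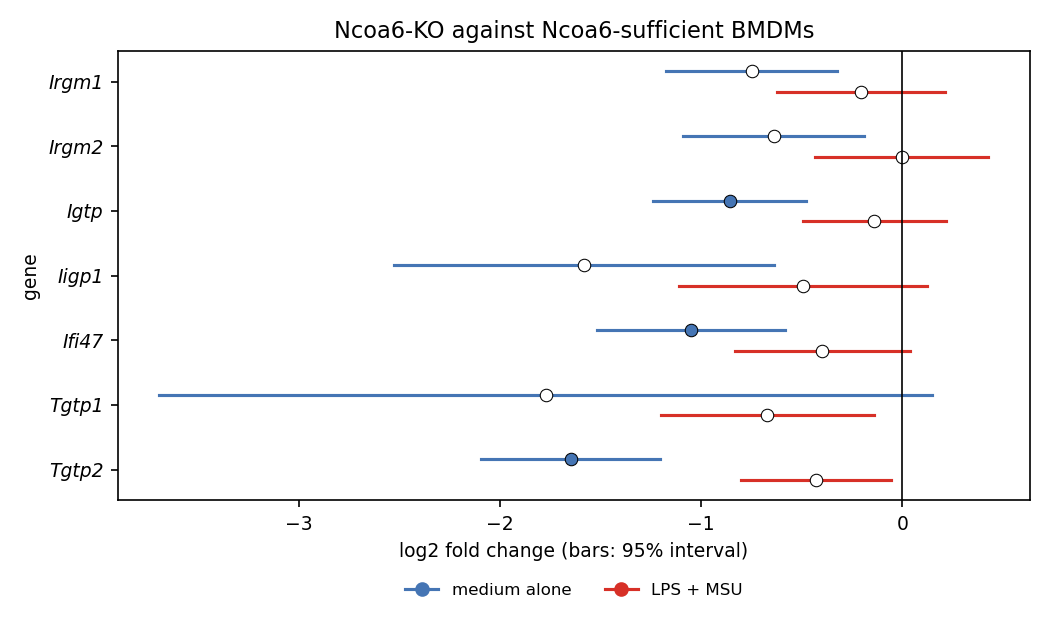
Log2 fold change of *Ncoa6*-KO against *Ncoa6*-sufficient BMDMs for each IRG gene in medium (blue) and with LPS + MSU (red), with bars for the 95% interval from edgeR and filled points for an adjusted p under 0.05. *Igtp*, *Ifi47* and *Tgtp2* in medium are filled, the median moves from -1.05 in medium to -0.40 with LPS + MSU, and *Irgm2* lies at 0 with LPS + MSU.

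The difference between the knockout effects under both conditions was tested as an interaction. It was positive for 7 of 7 genes, with a median of 0.72 on the log2 scale where all genes had 0.06, but edgeR called 0 of 7 and 0% of all genes. At an unadjusted p under 0.05 it passed 4 of 7 (*Irgm2*, *Igtp*, *Ifi47* and *Tgtp2*), against 5.93% of all genes. The largest was *Tgtp2* at 1.22 (SE 0.262, edgeR adjusted p = 0.344), followed by *Tgtp1* at 1.10 (SE 0.916), *Iigp1* at 1.09 (SE 0.514), *Igtp* at 0.72 (SE 0.235), *Ifi47* at 0.65 (SE 0.289), *Irgm2* at 0.64 (SE 0.282) and *Irgm1* at 0.54 (SE 0.270). Adjusted p-values from edgeR ran from 0.344 to 0.924 over the 7 genes. Calls numbered 0 with limma-voom (0% of all genes) and 0 with limma-trend (0.00567%). DESeq2 called 1 (*Tgtp2*, 0.255% of all genes), and edgeR without the filter on low counts called 5 (1.09% of all genes).

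The 7 genes also differed between replicate libraries of the same group. All 7 were higher in library 1 than in library 2 in each of the 4 groups, and the median log2 difference was 0.31 in *Ncoa6*-sufficient and 0.67 in *Ncoa6*-KO cells in medium, and 0.35 and 0.32 with LPS + MSU. Over the 11220 genes that averaged 50 or more normalized counts, 4.83%, 2.06%, 5.64% and 8.07% had a difference above these medians in the same order of groups. The *Ncoa6*-KO libraries in medium were the furthest apart, with differences from 0.52 for *Ifi47* to 1.19 for *Iigp1* and 2.27 for *Tgtp1*, which has the library at 0. The difference between the libraries of a group thus had the same sign across the family, and the 7 genes are not independent measurements of the knockout effect.

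**Figure D5:**
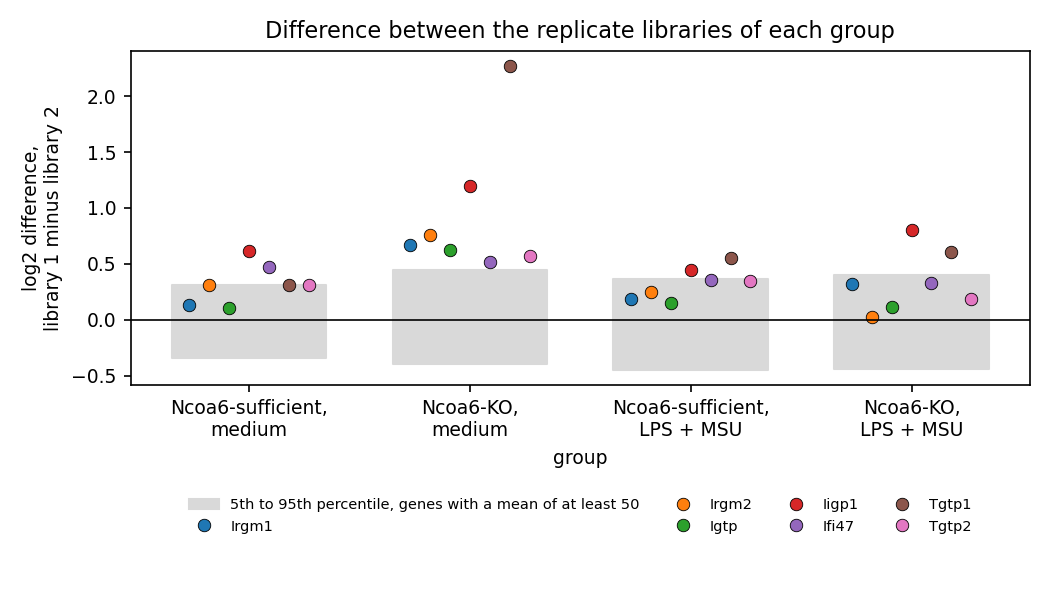
Log2 difference between library 1 and library 2 of each group for the 7 IRG genes (colored points), with grey bars from the 5th to the 95th percentile of the genes that averaged 50 or more normalized counts. All points lie above 0, and in *Ncoa6*-KO cells in medium all 7 lie above the grey bar, which ends at 0.45.

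Other IRG loci, the interferon pathway and the proteins that act with IRGs were counted whole. Of 10 other IRG loci tested, 2 fell in *Ncoa6*-KO cells in medium, where edgeR called 1.3% of all genes lower. With LPS + MSU edgeR called 0 of the 10 and 3.59% of all genes, and 3 of the 10 had an unadjusted p under 0.05, against 17.4% of all genes. These shares of all genes hold for the other lists as well. *Gm12250* (Irgb10), an effector that acts on bacteria, had 343 and 256 normalized counts in *Ncoa6*-sufficient and 138 and 69.4 in *Ncoa6*-KO libraries in medium, and fell by 1.5 on the log2 scale (SE 0.248, edgeR adjusted p = 0.0171). With LPS + MSU it had 7254 and 6460 against 5831 and 4965, and the log2 fold change was -0.34 (SE 0.198, edgeR adjusted p = 0.418). The genotypes did not overlap for *Gm12250* under either condition. *Gm5431*, which lies beside *Irgm1*, had 1153 and 882 against 564 and 256 in medium and fell by 1.3 (SE 0.280, edgeR adjusted p = 0.0454). LPS + MSU raised 9 of the 10 loci in both genotypes, against 24.7% and 25.2% of all genes, and lowered *Irgq*, an unusual member of the family, by 1.08 in *Ncoa6*-sufficient and 1.02 in *Ncoa6*-KO cells (edgeR adjusted p = 2.78e-05 and 4.33e-05). Of the raised loci, *Gm4841* and *Gm12187* had at most 2.01 expected counts in any library in medium. They passed the filter only through the stimulated libraries, so their rise was fixed by the filter and a fall in medium could not be seen.

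Of 17 tested genes for interferons, their receptors and signal transducers, 2 fell in *Ncoa6*-KO cells in medium and edgeR called 0 with LPS + MSU, where 6 had an unadjusted p under 0.05. *Irf7*, a transcription factor that drives type I interferon genes, had 2857 and 2281 normalized counts against 1101 and 680 in medium and fell by 1.53 on the log2 scale (SE 0.201, edgeR adjusted p = 0.00568). *Stat2*, a part of the complex that binds the ISRE, had 4150 and 3951 against 2934 and 1968 and fell by 0.72 (SE 0.157, edgeR adjusted p = 0.0464). *Irf1*, which induces many IRG and GBP genes, had log2 fold changes of -0.52 in medium (edgeR adjusted p = 0.103) and 0.24 with LPS + MSU (edgeR adjusted p = 0.423). *Ifnb1*, the gene of interferon-β, had 1 or 2 counts per library in medium, and 334 and 253 normalized counts in *Ncoa6*-sufficient against 204 and 157 in *Ncoa6*-KO cells with LPS + MSU. These did not overlap, and the log2 fold change was -0.70 (SE 0.198, edgeR adjusted p = 0.0867). *Ifng*, the gene of interferon-γ, had 0 counts in 7 libraries and 1 count in library 1 of *Ncoa6*-KO cells with LPS + MSU, where 3 counts is the limit that a count of 0 allows.

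Guanylate-binding proteins (GBPs) act with IRGs on vacuoles. Of 11 tested, 5 fell in *Ncoa6*-KO cells in medium, against 1.3% of all genes, with log2 fold changes of -1.47 for *Gbp5*, -1.32 for *Gbp3*, -1.22 for *Gbp9* and -1.17 for *Gbp2* (edgeR adjusted p = 0.0132, 0.0298, 0.0135 and 0.0301), and edgeR called 0 with LPS + MSU, where 1 had an unadjusted p under 0.05. All 11 rose with LPS + MSU in both genotypes, where edgeR called 24.7% and 25.2% of all genes higher. *Gbp2b*, *Gbp10* and *Gbp11* had at most 2.04 expected counts in any library in medium. They passed the filter only through the stimulated libraries, so their rise was fixed by the filter. A fall in medium could not be seen for them. Of 12 genes for ubiquitin-like conjugation and vacuole targeting, which are known to help place IRGs and GBPs on membranes, edgeR called 0 in medium, where 1 had an unadjusted p under 0.05. The largest values there were 0.25 for *Atg12* and 0.23 for *Gabarapl1* (edgeR adjusted p = 0.265 and 0.481). With LPS + MSU, 3 of the 12 rose in *Ncoa6*-KO cells, where edgeR called 1.96% of all genes higher, and they were chosen for naming after their values were seen. *Sqstm1*, an autophagy receptor, had 35842 and 45912 normalized counts in *Ncoa6*-sufficient and 80801 and 103486 in *Ncoa6*-KO libraries and rose by 1.17 on the log2 scale (SE 0.161, edgeR adjusted p = 0.00518), *Map1lc3a* by 0.76 and *Gabarapl1* by 0.57 (edgeR adjusted p = 0.0422 and 0.0377).

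The genes whose pattern was most like the family were sought among 11202 genes by Pearson's r over the 8 libraries with the mean of the standardized log2 CPM of the 7 genes. They were *Gbp3* (r = 0.9998), *Isg20* (0.9997), *Adar* (0.9995), *Parp9* (0.9995) and *Slfn2* (0.9994). Each IRG gene had an r of 0.9973 to 0.9997 with the mean of the other 6. These values are a description, since the libraries fall into stimulated and unstimulated sets and share their depth scaling. In *Ncoa6*-KO cells in medium, *Gbp3*, *Isg20* and *Parp9* were called lower, where edgeR called 1.3% of all genes lower. *Isg20* stood at -1.25 and *Parp9* at -0.74 on the log2 scale (edgeR adjusted p = 0.0478 and 0.0337). *Adar* at -0.49 and *Slfn2* at -0.50 were not called (edgeR adjusted p = 0.0889 and 0.181). All of these genes were picked by their likeness to the family over the 8 libraries, which include those in medium. Their falls in medium are therefore not independent of the choice and are given as a description.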

How the data were processed

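RNA from 8 BMDM libraries of 2 genotypes and 2 conditions was analyzed. The authors prepared stranded poly(A) libraries, aligned paired reads with STAR 2.7.3a to GRCm38 and estimated gene counts with RSEM 1.3.3 (annotation release 101), and deposited expected counts without normalization. They named DESeq2 and MultiQC without versions in the submitters' processing notes. Of 50615 genes, 50295 have a symbol.

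Expected counts were rounded, and genes with a sum of at least 10 over the 8 libraries (17625) were tested with edgeR 4.0.16 in R 4.3.3, using TMM factors, 1 fit of 4 groups (4 residual degrees of freedom, median biological coefficient of variation 0.114) and Benjamini-Hochberg adjustment over all genes, with a call at an adjusted p under 0.05. An exact permutation test of 2 against 2 libraries cannot go below 0.333. Replicates correlated at 0.987 to 0.992 across genes. log2 CPM used a prior count of 2. Alternatives used DESeq2 1.42.0, limma 3.58.1, other filters, size factors and samples, a replicate term, and each library left out. The code was tested on simulated counts.

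The members, gene lists and rules were chosen with earlier results of these data known. Named were the 7 members, *Ncoa6*, from each list the genes called in medium between genotypes (at most 4, otherwise the 2 largest), *Gm12250*, *Ifnb1*, *Irf1*, and the 5 genes of highest likeness, and 1 further gene of the rule is not reported here. Positions and exon lengths came from GENCODE M21 on GRCm38, another release than that used for counting. Amino acid sequences were not used here.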

Additional observations from a re-analysis of the deposited data

How the results depend on the processing

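The rise of the 7 genes with LPS + MSU was called under every alternative in both genotypes (6 of 6 features with *Tgtp1* and *Tgtp2* summed). The 3 calls between genotypes in medium became 7 without a count filter (4.67% of all genes called), 5 with DESeq2 (2.87%), 6 with a replicate block across groups (5.8%) and 7 with a replicate block within genotype (8.68%), and 0 to 5 when each library was left out (0.125% to 2.11%), where a group of 1 library is assumed to vary like the others. The 0 calls between genotypes with LPS + MSU became 4 without a filter (6.54% of all genes called) and 4 with either replicate block (8.69% across groups, 11.3% within genotype). The 0 interaction calls became 5 without a filter (1.09% of all genes called), 1 with DESeq2 (0.255%), and 2 and 6 with the replicate block across groups (0.488%) and within genotype (2.52%). The cause of these changes was not tested. Other size factors, filterByExpr, limma-voom, limma-trend and a fit of only the 4 libraries compared kept each count within 1.5 times. The sign changed only for *Irgm2* with LPS + MSU, whose value near 0 became 0.0084 and 0.043 with the blocks across groups and within genotype, 0.0027 with limma-voom and 0.0027 with limma-trend, and ran from -0.13 to 0.12 when each library was left out. The labels do not say that same-numbered libraries share a mouse, and with 2 pairs the numbers were not used to pair. Differences between libraries 1 and 2 correlated across genes at 0.310 between the conditions of *Ncoa6*-sufficient and 0.369 of *Ncoa6*-KO cells, and at 0.195 and 0.199 between genotypes within a condition. By Spearman correlation 62 genes tied with the family, none of the 5 named by Pearson's r. With 2 libraries per group, p-values rest on a spread shared among genes. *Tgtp1* in medium had at most 22.2 expected counts a library.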
